A study of Mus musculus with 10 samples.

Results

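The comparison of wild-type (WT) m6A immunoprecipitate (IP) with WT input asked which transcripts of mouse embryonic stem (ES) cells an antibody against N6-methyladenosine (m6A) pulls down and which it leaves behind. It used 4 of the 10 libraries of the series, 2 WT IP and 2 WT input libraries, chosen because their labels give the mettl3 WT genotype and the replicate numbers 1 and 2. All were made from total RNA of J-1, an established ES cell line cultured without feeder cells, and the labels do not tie these libraries to the differentiation without LIF that the growth protocol also mentions. The other libraries, used here only for comparison, were 2 IP and 2 input libraries with the mettl3 KO genotype, and 1 first IP with 1 first input whose labels give no genotype. How the knockout was made, and from how many clones, is not given in the sources used here. Nothing in the labels states whether the replicates are separate cultures, so p-values here reflect the spread from library to library and that spread may be technical.

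m6A is the most common internal mark of messenger RNA. A nuclear complex built around Mettl3 and Mettl14 writes it, the demethylases Fto and Alkbh5 can remove it, and proteins with a YTH domain read it and often speed the decay of the marked RNA. In mammalian cells the mark gathers in long exons and near stop codons, and in ES cells many transcripts of developmental and pluripotency regulators carry it. In the assay, RNA is fragmented, marked fragments are precipitated, and coverage of the precipitate is set against coverage of the unprecipitated fragments.

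Coverage was given for 1510223 exon windows of 30419 genes. It is a scaled signal and not a read count, so levels are in the authors' scaling. The gene measure was the mean coverage over all windows of a gene, compared as log2((IP + 1)/(input + 1)), and 11306 genes had a mean RPKM of at least 1 in the WT inputs. Mean window coverage was 9.43 and 9.48 in the WT IPs, against 6.70 and 6.91 in the WT inputs. Relative to WT input 1, depth was 0.569 in WT IP 1 and 0.255 in WT IP 2, against 1.04 in WT input 2, and 50.5% and 65.4% of windows were at 0 in the IPs, against 36.7% in each input. The IPs therefore measure low windows less precisely than the inputs do. Markers of ES cells were high in both inputs, for example Pou5f1 at 290.6 and 307 RPKM, while of the markers of other cell types 3 of 14 for fibroblasts and feeder cells, 3 of 10 neural, 1 of 10 mesoderm, 2 of 10 endoderm and 6 of 10 trophectoderm markers passed 1 RPKM, the highest being Tfap2c at 25.3 RPKM.

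Across genes, log2 coverage of the 2 WT IPs correlated at r = 0.981 and that of the 2 WT inputs at 0.997, against 0.708 between WT IP 1 and WT input 1. The log2 ratio of pair 1 correlated with that of pair 2 at 0.969 (Pearson, 11306 genes, which are not independent replicates). IP and input differed more across genes than replicates of either did.

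The IP held a different population of transcripts from the input. Coverage was higher in the IP for 5430 genes, 48% of those tested, and lower for 3779 genes, 33.4%, while 2097 genes did not pass (limma, adjusted p under 0.05). IP and input libraries did not overlap in any of the 9209 called genes, nor in 1173 of the 2097 that did not pass, so this sets the called genes apart only in part. Among them 3629 genes were higher by at least 2-fold and 166 by at least 8-fold, while 1898 were lower by at least 2-fold and 47 by at least 8-fold. The median gene had a log2 ratio of 0.27.

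Where 0 lies on this axis depends on the scaling, so the split between the directions does too. It was 4186 higher and 5169 lower after centring each library on its median gene, 4688 and 4510 after quantile normalization, and 9255 and 486 after centring each pair on windows that the first IP did not enrich. Under all 4 scalings 4112 genes (36.4%) were higher and 486 (4.30%) lower. The last centring subtracts an offset of −1.24 in pair 1 and −1.59 in pair 2, taken from windows, so it raises every gene's ratio. The 486 lower genes are those lower under that centring, which therefore alone sets the lower count. Counts under all 4 scalings are best read against these shares. Values below are in the authors' scaling and are best read against the median gene.

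**Figure D1:**
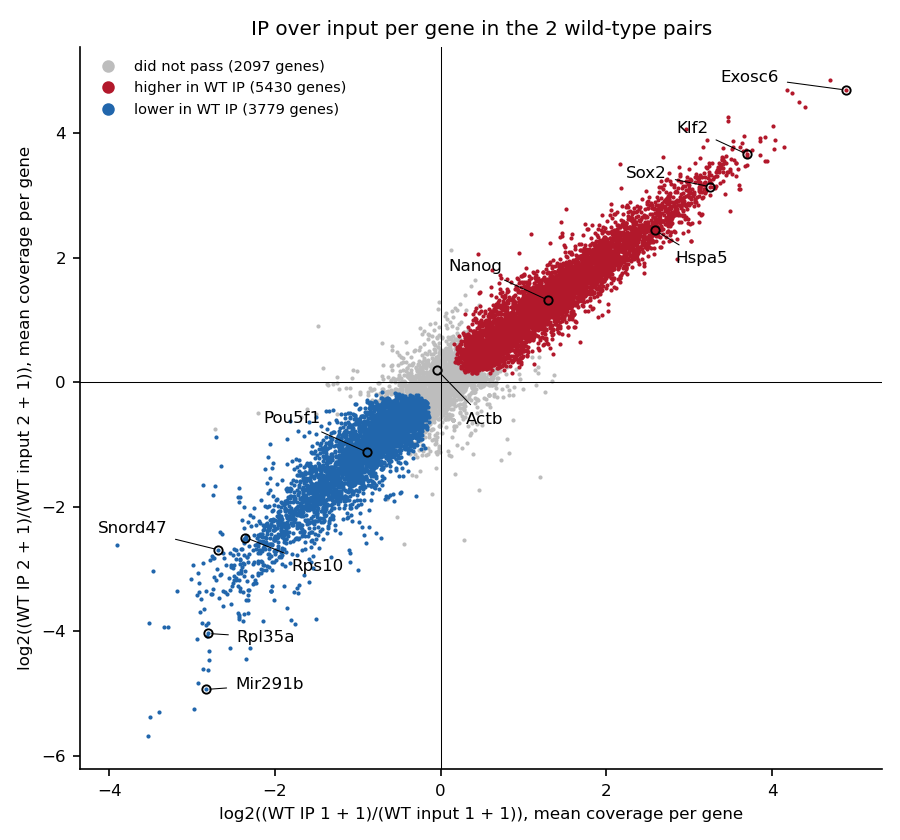
Each point is 1 of 11306 genes, with the log2 ratio of IP over input in pair 1 on the x axis and in pair 2 on the y axis. Red genes were higher in the WT IP (5430), blue genes lower (3779) and grey genes did not pass. The pairs follow each other, with Exosc6 at the upper end and Mir291b near the lower end.

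Among genes with at least 10 RPKM, the transcript with the highest ratio was that of a single-exon gene. Exosc6, a subunit of the RNA exosome that degrades RNA from its 3′ end, had a coverage of 336 and 318 in the WT IPs, against 10.4 and 11.3 in the WT inputs, a log2 ratio of 4.79 ± 0.09 (SE, n = 2 each, limma adjusted p = 3.31e-05). Every IP library was far above every input library. A transcript listed under the protein accession NP_001170862 followed at 4.78 ± 0.12, with 1734 and 1975 in the IPs, against 65.6 and 67.1 in the inputs.

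Next were Fdx1l, a mitochondrial ferredoxin, at a log2 ratio of 4.42, Rps19bp1, which encodes a protein that binds ribosomal protein S19, at 4.41, Gemin7, a subunit of the SMN complex that assembles splicing snRNPs, at 4.07, and Tcf15, a basic helix-loop-helix factor linked to exit from naive pluripotency, at 3.96. The unnamed transcript uc008swg.1 reached 3.84, Ndnl2, a subunit of the SMC5/6 complex, 3.76, and Pigyl 3.57. Clhc1 stood at 3.54. Of the 19 windows of Fdx1l, 7 had the same coverage as windows of the overlapping Raver1-fdx1l model, so its reads are uncertain.

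Jkamp, at a log2 ratio of 3.52, had the largest SE, 0.37, among the named genes that were higher. Its coverage was 75.9 in WT IP 1 and 168 in WT IP 2, against 8.90 and 9.01 in the WT inputs. WT IP 2 was higher than WT IP 1, and both lay above the inputs.

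Among genes with at least 100 RPKM, H2afx, the histone variant phosphorylated at DNA breaks, had 1239 and 1327 in the IPs, against 95.1 and 98.8 in the inputs, a log2 ratio of 3.71 ± 0.11. Unlike the replication-dependent histones described below, it can make a polyadenylated message. Sox2, a core pluripotency factor, had 1547 and 1561 in the IPs, against 162 and 176 in the inputs, a log2 ratio of 3.19 ± 0.12.

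Pabpn1, the nuclear poly(A)-binding protein, had 902 and 1108 in the IPs, against 86.4 and 96.4 in the inputs (log2 ratio 3.44). Rps4y2, which carries the name of a ribosomal protein gene, had 1561 and 1080.2 in the IPs, against 127 and 124 in the inputs (3.36). Hspa5, the chaperone of the endoplasmic reticulum, reached 2.51 and the histone chaperone Anp32b 2.44. All of these genes were higher under all 4 scalings of the gene mean.

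A gene mean can be carried by a few windows. With the median coverage over a gene's windows in place of the mean (called the median window below), Hspa5 stood at −2.04, Rps4y2 at −1.87 and Jkamp at −1.69. The median gene itself stood at −1.15 on the median window, where 68.1% of genes were lower. A value below 0 there can therefore still lie above the median gene. On that measure Exosc6 (3.31, limma adjusted p = 0.00402) and Sox2 (1.60, adjusted p = 0.00463) were still higher, but H2afx (0.18, adjusted p = 0.644) and Klf2 (0.42, adjusted p = 0.127) did not pass. Ndnl2 did not pass either, and NP_001170862 (−0.17), Fdx1l (−0.78), Tcf15 (−0.02), Pabpn1 (−0.28) and Anp32b (−0.64) turned below 0 but stayed above the median gene. Window by window, Hspa5 had 16 windows higher and 29 lower of 56 tested, and its highest window, in the 3′ exon, had 6454 and 6373 in the IPs, against 129 and 148 in the inputs. Jkamp had 8 higher and 16 lower of 38.

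**Figure D2:**
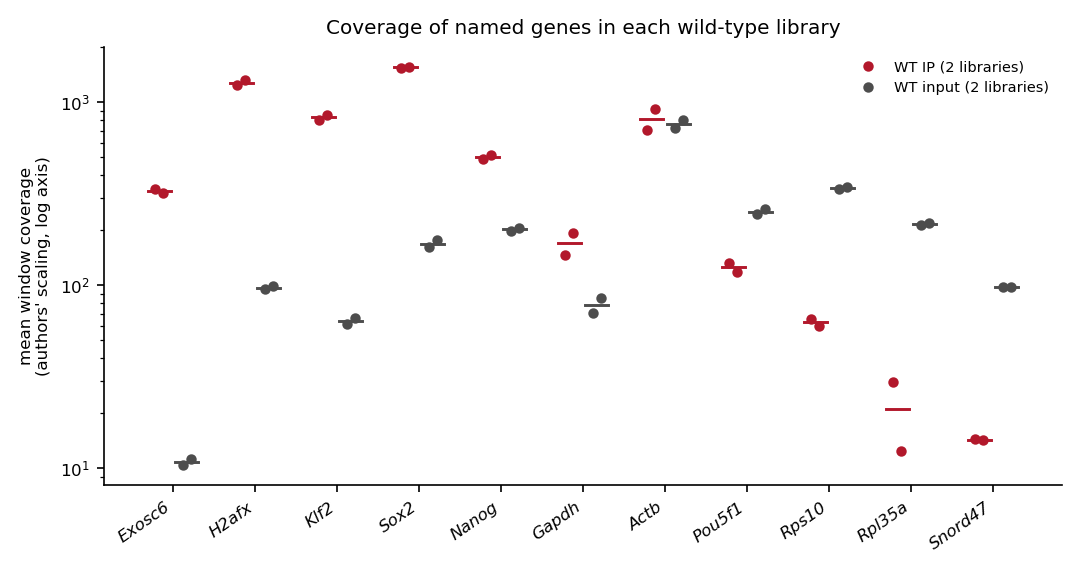
Mean window coverage of named genes (log axis) in each WT library, with WT IP in red to the left of WT input in grey. Dots are libraries and bars the mean of 2. Exosc6 to Gapdh lie higher in the IPs, the groups overlap for Actb, and Pou5f1 to Snord47 lie lower in the IPs.

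Many of the lowest ratios belonged to small noncoding RNAs, although these made up only 153 of the 3779 genes that were lower. Of the 187 small RNA loci tested, 153 were lower in the IP and 7 were higher, with a median log2 ratio of −1.93, against 0.27 over all genes. Under all 4 scalings 83 were lower. Small nucleolar RNAs (snoRNAs), which guide methylation and pseudouridylation of ribosomal RNA, made up 98 of them with their Cajal body relatives, 83 lower and 2 higher, and microRNA loci made up 81, 64 lower and 5 higher. These loci have a median of 2 windows, so each value rests on little sequence. The windows do not separate a mature small RNA from its precursor or host transcript.

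Snord47 had the smallest p among them. Its coverage was 14.4 and 14.2 in the WT IPs, against 97.8 and 97.4 in the WT inputs, a log2 ratio of −2.69 ± 0.08 (limma adjusted p = 3.31e-05). Snord32a followed with 9.39 and 8.82 in the IPs, against 81.6 and 74.4 in the inputs (−2.97).

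Several of the lowest ratios had far less coverage in the shallower WT IP 2 than in WT IP 1. Snord49a had 31.3 and 5.68 in the IPs, against 364 and 275 in the inputs, a log2 ratio of −4.44 ± 0.73. The unnamed transcript uc007zbz.1, which did not pass on the median window, reached −4.61, Mir5117 −4.35 and uc008lag.1 −4.11. Further down the order, Snord100 (−3.74), Snora65 (−3.71), AF357359 (−3.69), Snora16a (−3.61) and Mir5109 (−3.53) were also lower.

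Snord12, at a log2 ratio of −3.88, Snord16a and Snord2, both at −3.63, and Hist1h2an, a replication-dependent histone, at −3.55 are listed at 0 in WT IP 2. Their ratios therefore rest on the pseudocount in that library. Among loci with at least 100 RPKM, uc007beu.1, at −3.36, was also among the lowest.

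The microRNA loci Mir290 to Mir295 make the main microRNA cluster of mouse ES cells, whose products shorten the G1 phase and hold back differentiation. Apart from Mir291b, they were chosen after their values were seen. The mature 3p strands of 5 of these loci are shown to let their seeds be compared, and because all 7 loci were lower in the IP. Sequences are from RefSeq (GRCm38.p6, chromosome 7, plus strand), 5′ to 3′, with the seed (bases 2 to 8) in capitals.
miR-291a-3p: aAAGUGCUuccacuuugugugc
miR-294-3p: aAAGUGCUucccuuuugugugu
miR-295-3p: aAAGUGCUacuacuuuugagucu
miR-291b-3p: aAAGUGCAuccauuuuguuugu
miR-293-3p: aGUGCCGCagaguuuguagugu

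These strands lie at chr7:3218968-3218989 (miR-291a-3p), chr7:3220691-3220712 (miR-294-3p), chr7:3220815-3220837 (miR-295-3p), chr7:3219529-3219550 (miR-291b-3p) and chr7:3220390-3220411 (miR-293-3p). The first 3 of these share the seed AAGUGCU, miR-291b-3p carries AAGUGCA, and miR-293-3p has a different seed, GUGCCGC. The windows measure the locus and not the mature microRNA. Of the 7 loci, 6 were lower under all 4 scalings, the exception being Mir293. Mir295, the best covered, had 32.0 and 21.8 in the WT IPs, against 117 and 126 in the WT inputs (−2.15 ± 0.19, limma adjusted p = 0.000247). Mir294 had 8.97 and 6.78 in the IPs, against 32.8 and 34.7 in the inputs (−1.98).

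The groups did not overlap at either locus, which also holds for every called gene. Mir291b had 3.82 in WT IP 1 and was listed at 0 in WT IP 2, against 33.4 and 29.6 in the WT inputs (−3.88 ± 0.72). The remaining loci, Mir290, Mir291a, Mir292 and Mir293, lay between −2.53 and −2.01. Mir290 and Mir291a were listed at 0 in WT IP 2 and below 1 in WT IP 1, so their ratios, like that of Mir291b, rest on the pseudocount. By contrast Mir5114 was pulled down, with 418 and 367 in the IPs, against 53.6 and 56.2 in the inputs (2.81). Mir684-1.5 was lower again, at −2.89.

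Of 82 cytosolic ribosomal protein genes, 74 were lower and 5 higher, with a median log2 ratio of −2.05, and 48 were lower under all 4 scalings. Together they took 1.46% and 1.31% of all coverage in the WT IPs, against 5.19% and 5.003% in the WT inputs. This share does not depend on the scaling. In the first pair, whose coverage alone carries the label unique, they took 1.297% of coverage in the input and 0.468% in the IP. Their median log2 ratio there was −0.86. Whether reads with several positions add to their coverage in the other libraries was not tested. These genes are short and highly expressed, with a median of 16.5 windows and 453 RPKM.

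Rps10 had 65.2 and 60.1 in the IPs, against 338 and 343 in the inputs (−2.42 ± 0.09, limma adjusted p = 3.62e-05). Rps27 stood at −2.78, Rpl31 at −2.26 and Rps15a at −2.03, and 8 of the 14 windows of Rps27 had the same coverage as those of Gm9846. Rpl35a was the lowest of the list, with 29.7 and 12.4 in the IPs, against 215 and 219 in the inputs (−3.42 ± 0.38).

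The groups did not overlap for any of these genes, which also holds for every called gene and for 1173 of the 2097 that did not pass. Rpl29, picked after its value was seen as the highest of the list, went the other way, with 144 and 117 in the IPs, against 29.3 and 30.5 in the inputs (2.08). Its median window, however, stood at −1.88.

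Subunits of the oxidative phosphorylation complexes, encoded in the nucleus, were also mostly lower. Of 79 tested, 67 were lower and 6 higher, with a median of −1.41, but 21 were lower and 3 higher under all 4 scalings. Cox5a, a subunit of cytochrome c oxidase, had 26.8 and 28.9 in the IPs, against 135 and 147 in the inputs (−2.30). Ndufa4 stood at −2.22 and Atp5g3, a ring subunit of ATP synthase, at −2.21.

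Among the few that were higher, Atp5sl reached 2.88 (−0.66 on the median window). Proteasome subunits were lower in 27 of 37 and higher in 5 (median −1.19), and under all 4 scalings in 6 and 4, with Psma7 of the catalytic core at −2.10 and Psmd7 of the regulatory cap at 2.67. Psmd7 had 383 and 416 in the IPs, against 61.7 in both inputs, so members of 1 complex lay on opposite sides of the median gene.

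Replication-dependent histone genes, whose messages end in a stem-loop in place of a poly(A) tail, were lower in 42 of 59 and higher in 3 (median −0.97), but 7 were lower and 1 higher under all 4 scalings. Hist1h2ai had 3.85 and 3.49 in the IPs, against 18.7 and 19.6 in the inputs (−2.11). Hist1h2ad stood at −2.13. Hist1h4c was listed at 0 in both IPs, against 2.57 and 2.60 in the inputs. Histone genes have close copies, and how reads with several positions were treated is not given in the sources used here.

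Other housekeeping lists lay below the median gene by smaller margins. For these lists the balance of directions depends on the scaling. Over all genes 36.4% were higher and 4.30% lower under all 4 scalings, so having more higher than lower members there is not particular to these lists. Translation factors had a median of −0.48, with 36 of 60 lower (60%) and 15 higher (25%), against 33.4% and 48% of all genes. Under all 4 scalings 7 were lower and 14 higher. Eif4g2, which drives translation without the cap, stood at −2.02 and Eif3i at −1.82, a call lost when pairs were centred outside the first IP's enrichment, while Eif3a, another subunit of the same initiation factor as Eif3i, had 215 and 224 in the IPs, against 63.3 and 63.6 in the inputs (1.77, with a median window of −1.52). Splicing factors were lower in 43 of 71 and higher in 17 (median −0.60), and 4 were lower and 13 higher under all 4 scalings. Snrnp35 of the minor spliceosome at 2.98 and Sf3b5 at 2.48 were among the 17 that were higher.

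Aminoacyl-tRNA synthetases were lower in 19 of 33 and higher in 9 (median −0.65), and 3 were lower and 5 higher under all 4 scalings. The mitochondrial enzyme Mars2 reached 3.46 (−0.25 on the median window), with 61.7 and 58.7 in the IPs, against 4.58 and 4.54 in the inputs, whereas the cytosolic Farsb stood at −2.33. Chaperones were lower in 18 of 30 and higher in 7 (median −0.63), with 6 in each direction under all 4 scalings, and Cct4 of the chaperonin ring stood at −2.94.

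Glycolysis genes were lower in 12 of 20 and higher in 5 (median −0.62), and 1 was lower and 3 higher under all 4 scalings. The glucose transporter Slc2a1 was at 2.19 on the mean and −1.22 on the median window, and the enzyme Pgk1 at −1.57. Cell cycle regulators were lower in 21 of 37 and higher in 11 (median −0.40), and 3 were lower and 10 higher under all 4 scalings. Named members were Cdk4 at −1.89 and its partner Ccnd3 at −1.48, against E2f3 at 1.46 and Mdm2, the ubiquitin ligase of p53, at 2.12, and on the median window E2f3 stood at −0.63 and Mdm2 at −0.68. The calls of Ccnd3 and Pgk1 were lost when pairs were centred outside the first IP's enrichment. Cholesterol genes were split, with 9 higher (40.9%) and 7 lower (31.8%) of 22, against 48% and 33.4% of all genes. Their median was 0.16, and 3 were higher and 0 lower under all 4 scalings. The isomerase Idi1 stood at −0.87, and turned to 0.55 when pairs were centred on windows outside the first IP's enrichment.

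Of 76 mitochondrial ribosomal protein genes, 43 were higher (56.6%) and 24 lower (31.6%), against 48% and 33.4% of all genes. Their median was 0.67, and 33 were higher and 6 lower under all 4 scalings. Their difference from the cytosolic list was not tested. Mrpl12 had 419.8 and 453 in the IPs, against 39.9 and 42.3 in the inputs (3.38). Mrps18b stood at 3.11 and Mrps34 at 2.96. On the median window Mrpl12 was at −0.97 and Mrps18b at −1.64, and Mrps34 did not pass. The median expression of the list was 20.6 RPKM.

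**Figure D3:**
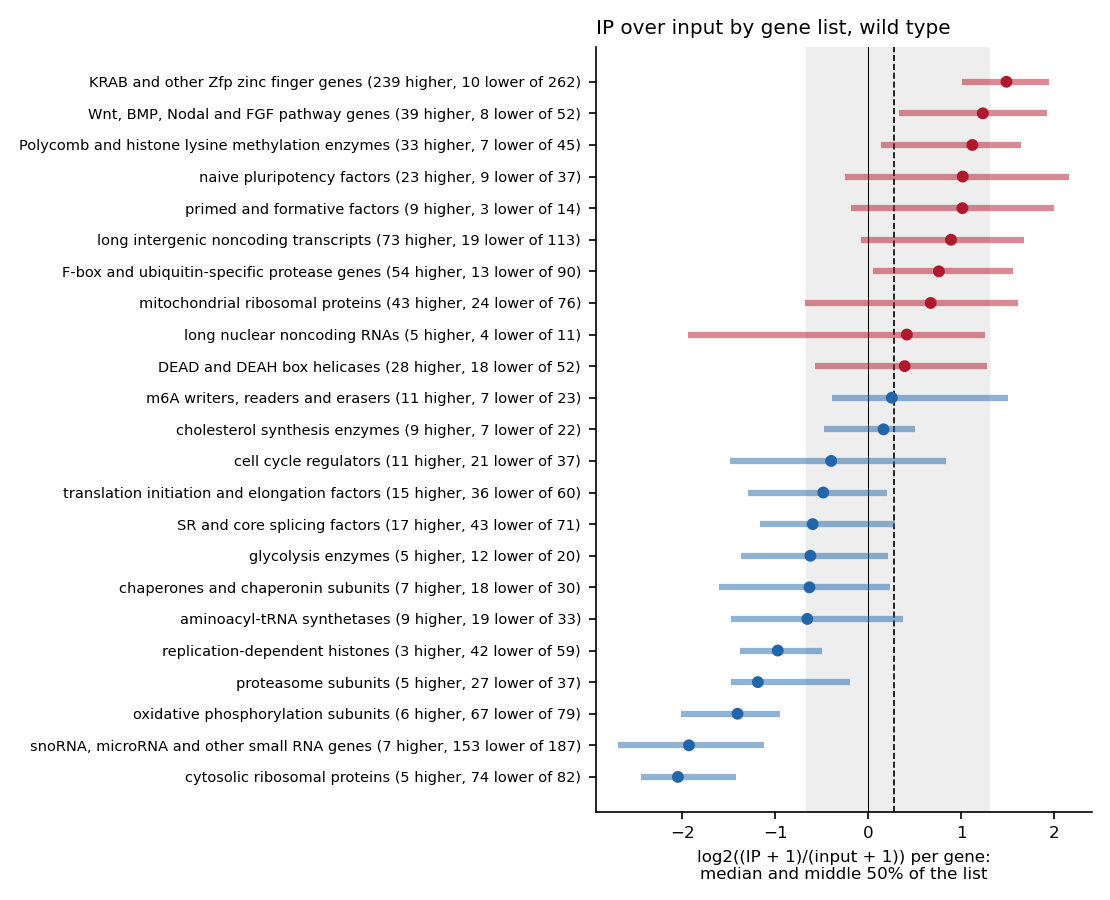
Median (dot) and middle 50% (bar) of the log2 ratio of IP over input in each gene list. The dashed line marks the median of all genes (0.27) and the grey band their middle 50%, and red lists lie above that median and blue lists below it. Zinc finger and signalling genes lie at the top, and small RNA and cytosolic ribosomal protein genes at the bottom.

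Among lists with at least 10 genes tested, the highest median was that of the Zfp zinc finger genes, many of which encode KRAB repressors of transposable elements. Of 262 tested, 239 were higher and 10 lower, with a median of 1.49, and 214 were higher under all 4 scalings. They took 2.84% and 2.73% of coverage in the WT IPs, against 1.20% and 1.24% in the WT inputs.

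Zfp1 had 58.9 and 63.6 in the IPs, against 5.37 and 5.401 in the inputs (3.28 ± 0.08). Zfp830 reached 3.31, Zfp81 3.17 and Zfp639 3.16, but on the median window Zfp1 did not pass, Zfp830 was at −0.34 and Zfp639 at −0.22. These genes have a long exon, with a median of 50 windows in the longest exon, against 24 over all genes.

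Genes of the Wnt, BMP, Nodal and FGF pathways were higher in 39 of 52 and lower in 8, with a median of 1.23, and 30 were higher and 0 lower under all 4 scalings. Myc, a growth regulator, had 53.5 and 64.9 in the IPs, against 3.73 and 3.78 in the inputs (3.66 ± 0.12). Jun, a subunit of the factor AP-1, stood at 3.48, Mycn at 3.36 and the immediate early gene Egr1 at 2.69. Jun and Mycn did not pass on the median window.

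Polycomb and histone lysine methylation enzymes were higher in 33 of 45 and lower in 7 (median 1.12), and in 28 and 1 under all 4 scalings. Cbx7, a reader in Polycomb repressive complex 1, reached 2.07, Setd2, which methylates histone H3 behind elongating polymerase, 1.92, the demethylase Kdm5b 1.83 and Setdb1, which silences retroviral repeats, 1.64. On the median window Kdm5b (−2.005), Setdb1 (−1.43) and Cbx7 (−0.68) turned, with the mean of log2 coverage Kdm5b (−1.18) and Setdb1 (−0.56) turned too, and Setd2 did not pass. Eed, a core subunit of Polycomb repressive complex 2 named after its value was seen, was the lowest, with 14.8 and 9.86 in the IPs, against 46.4 and 50.9 in the inputs (−1.92). F-box and ubiquitin-specific protease genes were higher in 54 of 90 (60%) and lower in 13 (14.4%), against 48% and 33.4% of all genes. Their median was 0.76, and 45 were higher and 0 lower under all 4 scalings. Usp1, which acts in DNA repair, stood at 3.14 (−0.82 on the median window) and Fbxo5, an inhibitor of the anaphase-promoting complex, at 2.91. DEAD and DEAH box helicases had a median of 0.39, with 28 of 52 higher (53.8%) and 18 lower (34.6%), near the 48% and 33.4% of all genes. Under all 4 scalings 19 of the helicases were higher and 1 lower. Ddx24 stood at 2.14 and did not pass on the median window.

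Of 37 naive pluripotency genes, 23 were higher (62.2%) and 9 lower (24.3%), against 48% and 33.4% of all genes. Their median was 1.02 with a middle 50% from −0.24 to 2.16, and 20 were higher and 2 lower under all 4 scalings. The Krüppel-like factors of the naive state were among the strongest. Klf2 had 803 and 854 in the IPs, against 61.1 and 66.4 in the inputs (3.68 ± 0.10). Klf4 had 596 and 614 in the IPs, against 68.1 and 70.9 in the inputs (3.11), and Klf5, named after its value was seen, stood at 2.90.

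Nr5a2, a nuclear receptor that can activate Pou5f1, stood at 2.77 and the growth factor Fgf4 at 2.69. Sall4, named after its value was seen, stood at 2.09. On the median window Nr5a2 was at −0.73, Fgf4 at −0.19 and Sall4 at −0.29. Nanog was intermediate, with 489.9 and 514 in the IPs, against 198 and 206 in the inputs (1.31 ± 0.10), and its median window was at −0.79.

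Pou5f1, which encodes Oct4, went the other way. It had 133 and 119 in the IPs, against 246 and 259.8 in the inputs (−1.01 ± 0.10, limma adjusted p = 0.000482), but it turned to 0.41 when pairs were centred on windows outside the first IP's enrichment. Dppa5a, Trim28 and Tfcp2l1, named after their values were seen, were at −2.90, −2.05 and −1.61, the call of Tfcp2l1 being lost under that centring. Dppa5a is the most abundant of these, with 264 and 158 in the IPs, against 1525 and 1539 in the inputs.

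Of 14 primed and formative genes, 9 were higher (64.3%) and 3 lower (21.4%), against 48% and 33.4% of all genes. Their median was 1.01, and 8 were higher and 0 lower under all 4 scalings. Nodal, a signal that patterns the early embryo, had 168 and 210.3 in the IPs, against 24.5 and 26.0 in the inputs (2.85 ± 0.13). Sox4 stood at 2.81 and Foxd3 at 2.24. Dnmt3l, a cofactor of DNA methylation, stood at −1.38, and at 0.04 under the centring that turned Pou5f1.

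The genes of the m6A system itself were higher in 11 of 23 (47.8%) and lower in 7 (30.4%), near the 48% and 33.4% of all genes. Their median was 0.25, against 0.27 over all genes, and 10 were higher and 0 lower under all 4 scalings. Mettl3, the catalytic subunit, had 3.41 and 3.36 in the IPs, against 4.79 and 4.67 in the inputs (−0.38 ± 0.10, limma adjusted p = 0.0134), and turned to 1.03 when centred outside the first IP's enrichment. Mettl14, its partner, did not pass (−0.07 ± 0.16, adjusted p = 0.689). Mettl14, Zc3h13, Cbll1, Ythdc1 and Ythdf3 were named after their values were seen.

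Wtap, which holds the catalytic pair in nuclear speckles, had 143 and 156 in the IPs, against 17.0 and 18.0 in the inputs (3.03 ± 0.09). Rbm15b stood at 3.17 and Rbm15 at 2.77, both of which recruit the complex to RNA, Zc3h13 at 2.43 and Cbll1 at 1.49. Among readers, Ythdf2 had 114 and 119 in the IPs, against 19.2 and 21.3 in the inputs (2.47), Ythdf3 stood at 1.38 and Ythdc1 at 1.06. On the median window Wtap was at −0.72, Ythdf2 at −1.12, Cbll1 at −1.90, Ythdf3 at −2.15 and Ythdc1 at −1.18. The median gene was at −1.15 on that measure.

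Actb, a common loading control, had 704 and 924 in the IPs, against 727 and 803 in the inputs, so the groups overlapped and the gene did not pass (0.08 ± 0.18, limma adjusted p = 0.698; −0.38 after median centring). Gapdh had 146 and 194 in the IPs, against 70.3 and 85.6 in the inputs (1.11 ± 0.18, adjusted p = 0.00244), with a median window of −1.01.

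Long intergenic noncoding transcripts were higher in 73 of 113 (64.6%) and lower in 19 (16.8%), against 48% and 33.4% of all genes. Their median was 0.89, and 59 were higher and 1 lower under all 4 scalings. Among them guttman:linc1281.3 stood at 3.45, although 11 of its 31 windows had the same coverage as D630045M09Rik. Of 11 long nuclear noncoding RNAs, 5 were higher (45.5%) and 4 lower (36.4%), near the 48% and 33.4% of all genes. Under all 4 scalings 4 of these RNAs were higher and 3 lower. Neat1, the scaffold of paraspeckles, had 152 and 134 in the IPs, against 34.5 and 32.2 in the inputs (2.06), but did not pass on the median window. Rian, from an imprinted cluster, stood at 1.87 with a median window of −2.58, and Snhg1, a host of snoRNAs, at −2.06.

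Few markers of other cell types could be tested. Of 10 trophectoderm markers 6 were tested, 3 higher (50%) and 2 lower (33.3%), near the 48% and 33.4% of all genes. Of 14 fibroblast markers 3 were tested, with 2 lower. Neural markers were higher in 2 and lower in 1 of 3 tested, the 1 mesoderm marker tested was higher, and of 2 endoderm markers 1 was higher and 1 lower.

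Most transcripts held both kinds of window. Of 595461 windows tested, 104241 (17.5%) were higher in the IP and 229871 (38.6%) lower, with a median log2 ratio of −0.94. After centring each library on its median the balance turned, with 149041 higher and 131456 lower. A higher window occurred in 9043 genes (80.3%), and 8544 genes had both higher and lower windows. Among the 3779 genes that were lower as a whole, 1822 had a higher window.

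Higher windows formed 20296 runs of at least 2, with a median length of 4 windows, in 8428 genes. In genes that were higher as a whole, a median of 26.6% of windows were higher and 21.7% lower. The log2 ratio of windows correlated at 0.852 between the 2 pairs.

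Among genes of at least 10 RPKM, and with 1 window taken per gene, the windows with the largest ratio lay mostly in 3′ exons. Wdr26 led with 4127 and 5066 in the WT IPs, against 22.3 and 19.1 in the WT inputs, a log2 ratio of 7.72 ± 0.17 (limma adjusted p = 0.000249). The next were in Jkamp (7.25), Dse (7.18), Tmem2 (7.11), Phf20 (7.05), Ccnt2 (6.95), Sox2 (6.86), Hnrpdl (6.86) and Smim15 (6.82). Of these 9 windows, 6 lay in a 3′ exon, 1 in the only exon of Sox2 and 2 in genes whose strand could not be matched.

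Windows were placed in exon classes by the strand of the gene in RefSeq. The exon numbers of the files follow the genome and not the transcript: the last-numbered exon was the longer in 94.1% of plus-strand genes and in 6.21% of minus-strand genes. For 25.7% of the windows no strand was matched, and these are left out of the classes.

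In internal exons of at least 10 windows 44.0% of windows were higher and 9.60% lower (median log2 ratio 1.00), and these exons gave 14.5% of all higher windows from 5.78% of windows tested. In internal exons under 10 windows 2.74% were higher and 56.6% lower (median −1.60). Coverage in long internal exons was 8.68% and 8.90% of the total in the WT IPs, against 2.78% and 2.71% in the WT inputs.

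In 3′ exons 23.2% of windows were higher and 33.8% lower. They gave 46.3% of all higher windows from 34.9% of windows tested, and held 49.9% and 50.6% of coverage in the WT IPs, against 35.1% and 36.6% in the WT inputs. In 5′ exons 18.1% were higher and 17.1% lower. Single exons had 26.7% higher and 32.6% lower.

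In 3′ exons of at least 20 windows the median log2 ratio was −0.62 in the first window from the 5′ end, 1.27 in window 6, where 51.9% of 4183 windows were higher, −0.01 in window 13 and −0.73 in window 20. In window 6 the median was 1.33 in pair 1 and 1.27 in pair 2, and in window 20 it was −0.54 and −0.96.

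**Figure D4:**
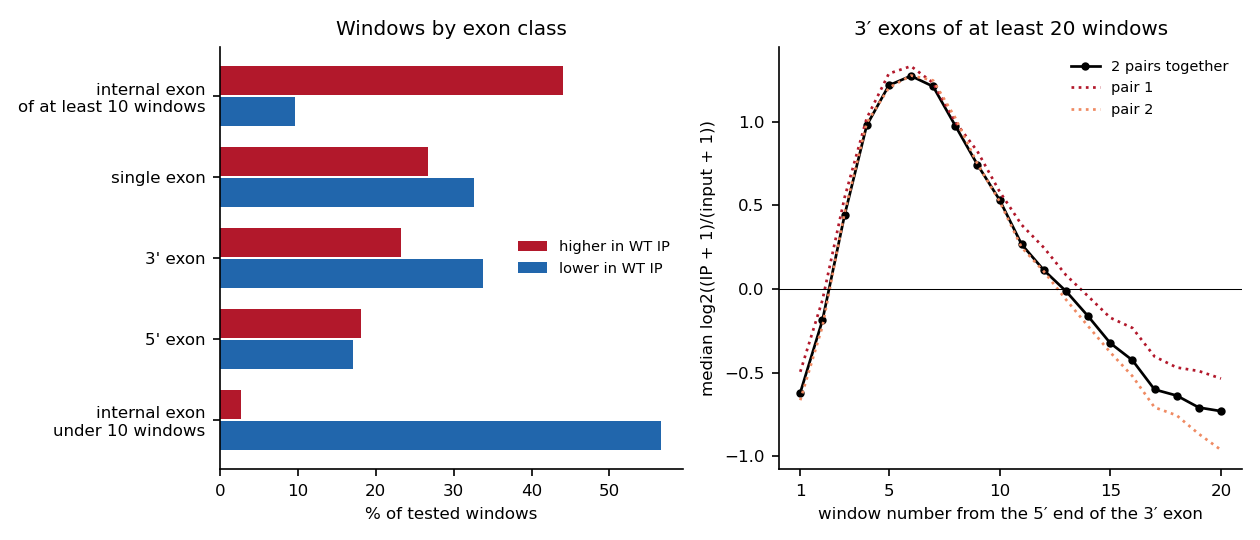
Left, the percentage of tested windows that were higher (red) or lower (blue) in the WT IP in each exon class. Right, the median log2 ratio of IP over input by window number from the 5′ end of 3′ exons of at least 20 windows, for both pairs together (black) and each pair (dotted). Long internal exons show the highest share of higher windows, and the 3′ exon curve peaks at window 6.

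Sox2, a gene with 1 exon, had 32 windows higher and 8 lower of 50, and its peak at window 28 had 17516 and 17515 in the IPs, against 154 and 146 in the inputs. In Klf2 the peak lay in window 6 of the 3′ exon, with 11189 and 11701 in the IPs, against 112 and 135 in the inputs (6.53). Over the whole gene, peak included, Klf2 had 13 windows higher and 7 lower of 37 tested.

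In Nanog 10 windows were higher and 14 lower of 29, and the median log2 ratio was 2.30 in the windows of its 3′ exon, against −2.02 to −0.996 in those of its other 3 exons. Its highest window, in that exon, had 2891 and 3231 in the IPs, against 335 and 347 in the inputs (3.16). Pou5f1 had 1 higher window, in the 5′ exon, with 296 and 284 in the IPs, against 225 and 208 in the inputs (0.42, limma adjusted p = 0.048), and 24 lower windows of 32.

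**Figure D5:**
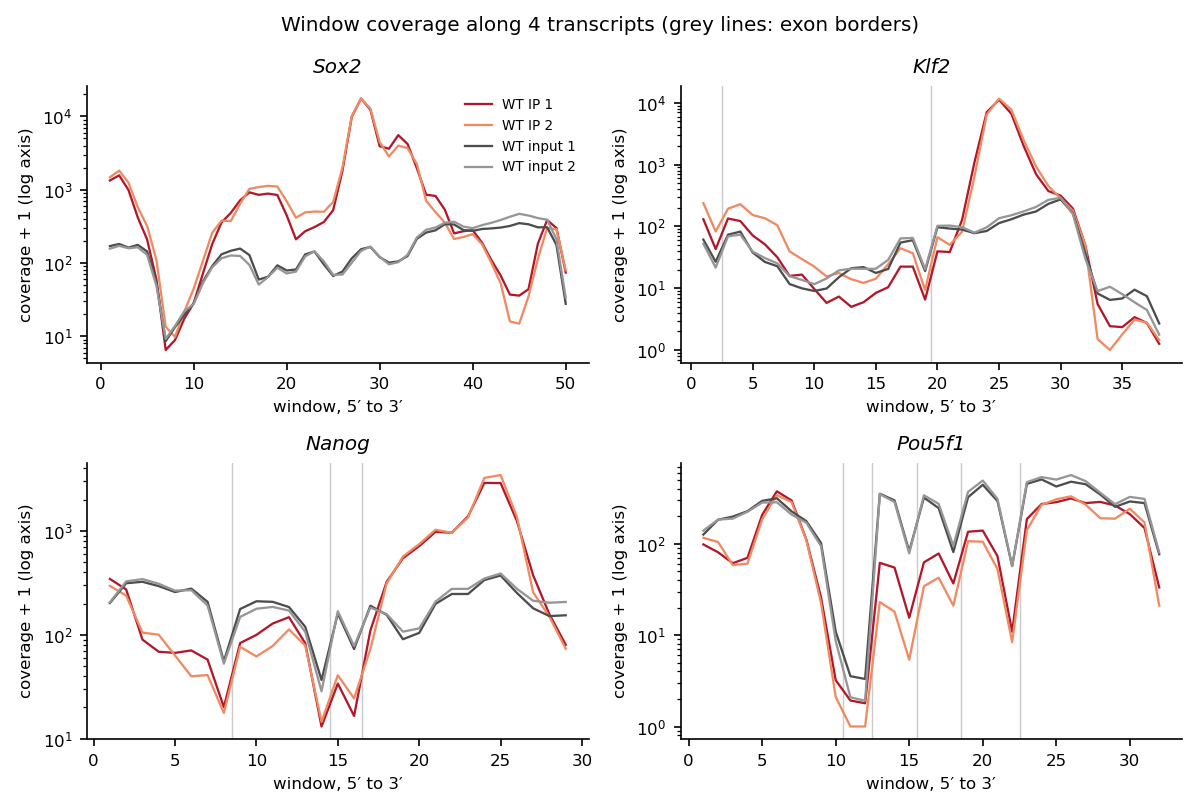
Coverage plus 1 (log axis) in the windows of Sox2, Klf2, Nanog and Pou5f1 from 5′ to 3′, with the WT IPs in red and orange and the WT inputs in greys, and grey lines at exon borders. The IPs rise far above the inputs in a narrow stretch of Sox2, Klf2 and the 3′ exon of Nanog, and lie below them over most of Pou5f1.

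Genes whose longest exon had 40 to 79 windows had a median log2 ratio of 0.81, and 62.3% were higher, whereas genes whose longest exon had 1 to 4 windows had a median of −1.39 and 5.24% higher. Genes with 2 exons had a median of 1.63 (534 genes, 77.0% higher), against −0.76 for single-exon genes, which include the small RNAs, and 0.04 for genes of at least 21 exons. Genes of at least 100 RPKM had a median of −1.37, with 11.3% higher, against 0.57 and 55.3% in genes of 1 to 3 RPKM. Across genes the Spearman correlation of the ratio was 0.351 with the longest exon and −0.278 with RPKM, and since RPKM and the ratio share the input libraries, this is a description only.

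Among the genes that were higher in WT, 91.1% and 94.9% had a ratio above 0 in the KO pairs and 87.1% in the first pair, against 52.1%, 53.7% and 47.3% of all genes. Among the genes that were lower in WT, 93.1% and 95.8% lay below 0 in the KO pairs and 95.8% in the first pair, against 47.9%, 46.3% and 51.8% of all genes. In the KO pairs Exosc6 had ratios of 4.76 and 4.80, Sox2 3.08 and 3.32 and Klf2 3.69 and 3.47, against 4.79, 3.19 and 3.68 in WT. Wtap had 1.95 and 2.22 and Nanog 0.62 and 0.45 in the KO pairs, against 3.03 and 1.31 in WT. Named genes higher in WT but below 0 in the first pair included Mrps18b (−1.06), Gapdh (−0.37), Rps4y2 (−0.34) and uc008swg.1 (−0.02). Jkamp lay at 0.03 there, and Atp5g3, lower in WT, at 0.16. The mean coverage of Mettl3 in the inputs was 4.79 and 4.67 in WT, against 3.14 and 3.38 in KO, and a gene mean over all windows does not check a deletion of part of the gene.

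The size of the ratio was set against the KO pairs in 1 model over 8 libraries. In the median gene WT exceeded KO by 0.14 on the log2 scale, and 64.9% of all genes had a larger ratio in WT. Among genes higher in WT, which were chosen by their WT ratio, the median was 0.22 and the share 76.2%, a description only. These values are in the authors' scaling. After centring each library on its median, the median difference over all genes was −0.0086, so the excess in WT depends on the scaling. No gene had a ratio that was higher in WT past the threshold (0%), and 1 gene was lower (0.00884%). An unadjusted p under 0.05 (limma) was reached by 1628 and 502 genes in these directions. After centring each library on its median, the unadjusted counts were 920 and 1004. Without KO IP 1 the median difference was 0.11, and without KO IP 2 it was 0.17. Such fits leave the KO IP group with 1 library, which adds no spread, so their counts are not given here.

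The gene that passed was Psma5, a proteasome subunit, with a log2 ratio of −1.15 and −1.31 in WT, against 0.65 and 0.42 in KO, a difference of −1.77 ± 0.14 (limma adjusted p = 0.0394, but 0.177 with the replicate number as a block, which ends the call). Among those with the smallest p that did not pass, Cbfb differed by 1.44, the mitochondrial ribosomal gene Mrpl9 by 1.20, the replication helicase subunit Mcm6 by 1.31 and the splicing factor Bcas2 by 1.06 (limma adjusted p = 0.0554 for each). In the other direction Atp5l differed by −1.14 at the same adjusted p. Atp5l had 0.418 in the first input, against 98.1 and 103 in the WT inputs. Psma5 had 3.92 in the first input, against 38.0 and 40.8 in the WT inputs. Mrpl9 had 38.8 and 36.2 in the WT IPs, against 15.4 and 14.9 in the KO IPs, with 11.8 and 11.6 in the WT inputs, against 11.6 and 10.9 in the KO inputs.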

How the data were processed

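Coverage, a signal that is never negative, was deposited by the authors for each exon window of every IP and input pair, per the file headers. A log2 winscore of IP over input was also deposited by the authors, per the file headers, and RPKM values per gene for the inputs were deposited in a separate table. Reads were aligned with TopHat 1.1.3 to mm9, per the submitters' processing notes, and libraries kept strand, per the labels' protocols. Coverage was scaled by the authors with a factor not given in the sources used here. The lowest values of each library were whole multiples of 1 step, and that step gave the relative depth but not read numbers.

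Gene means of coverage, on the log2(value + 1) scale, which understates changes of low genes, were compared with limma 3.58.1 in R 4.3.3 (lmFit, eBayes with trend, Benjamini-Hochberg adjustment over all genes, threshold 0.05), after a filter of mean WT input RPKM of at least 1. Windows with a mean of at least 1 over the 4 libraries were tested likewise, and 8 libraries gave the WT against KO difference. The fits were tested on simulated data. Of the 11306 names, 9908 equalled a current RefSeq symbol (GRCm38.p6), 747 an older one and 651 neither. No mm9 sequence was used.

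The genes named were the 14 highest and 14 lowest ratios among called genes of at least 10 RPKM, the 6 of each kind at 100 RPKM, the 10 highest windows, up to 4 members of each list by smallest p, 6 fixed genes and the 8 smallest p of each direction for WT against KO. The lists, rules and members were chosen with earlier results of these data known. No mitochondrially encoded transcript was among the genes, so that list gave no value. Deviations of IP and input with the same number correlated at 0.035 in WT and 0.045 in KO. Little deviation was therefore shared, which does not settle whether libraries with the same number belong together. The authors' winscores set each IP over an input, taken here as that of the same number. The main fits did not use this pairing, and the replicate block did. Python 3.11.15, pandas 2.3.3, numpy 2.4.6 and matplotlib 3.10.9 were used. Some results that these rules select are not reported here.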

Additional observations from a re-analysis of the deposited data

Results flagged for a closer look

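Psma5 was the 1 gene whose log2 ratio of IP over input differed between WT and KO by the test of the difference itself (−1.77 ± 0.14, limma adjusted p = 0.0394). Its coverage was 16.5 and 15.8 in the WT IPs, against 62.4 and 58.9 in the KO IPs, with 38.0 and 40.8 in the WT inputs, against 39.4 and 43.8 in the KO inputs. In the first pair, whose coverage alone carries the label unique, Psma5 had only 3.92 in the input and 2.05 in the IP. Whether reads with several positions add to its coverage in the other libraries was not tested. The difference kept its sign without each of the 8 libraries in turn, at −1.84 to −1.69, and its adjusted p ranged from 0.00221 to 0.415 there. With the replicate number as a block the adjusted p was 0.177. No cause was tested.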

How the results depend on the processing

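The gene counts kept within 1.5-fold under most settings, median centring and quantile normalization among them, but not when the gene measure changed, under the centring outside the first IP's enrichment, or for genes higher at 5 RPKM. Centring outside the first IP's enrichment gave 9255 genes higher and 486 lower, the median window 638 and 7696, and the mean over windows of log2 coverage 1540 and 6750, while a filter at 5 RPKM left 2870 higher. Without 1 library in turn, 4515 to 5911 genes were higher and 2684 to 4294 lower. Windows lower in the IP numbered 127203 with a pseudocount of 0.1, 118610 at a mean coverage of at least 5 and 131456 after median centring, where 149041 were higher. Without 1 library in turn, 29343 to 151644 windows were higher and 37788 to 335345 lower, the lowest counts coming without WT input 1 and the highest without WT IP 1. For WT against KO, a pseudocount of 5 gave 120 genes higher and 24 lower, and leaving out 1 library 0 to 2335 higher and 0 to 856 lower.

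The replicate block gave 5403 genes higher and 3748 lower, 107921 windows higher and 255862 lower, and 0 genes in either direction for WT against KO, where the 1 gene lost was Psma5. No other count moved by over 1.5 times under it.

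Of the 124 named genes, 66 kept direction and side of the threshold under every setting run for them. With the mean over windows of log2 coverage these turned: Jkamp −0.22, Rps4y2 −0.15, Hspa5 −0.58, Wtap −0.13, Kdm5b −1.18, Setdb1 −0.56, Mdm2 −0.31, Mrps18b −0.22, Eif3a −0.88, Rian −1.40, Slc2a1 −0.27, Actb −1.19, Gapdh −0.89, Nanog −0.044, Rpl29 −0.087, Cbll1 −0.61, Ythdc1 −0.41 and Ythdf3 −0.89. With the median window these turned: NP_001170862 −0.17, Fdx1l −0.78, Tcf15 −0.024, Jkamp −1.69, Pabpn1 −0.28, Rps4y2 −1.87, Hspa5 −2.04, Anp32b −0.64, Wtap −0.72, Ythdf2 −1.12, Nr5a2 −0.73, Fgf4 −0.19, Cbx7 −0.68, Kdm5b −2.005, Setdb1 −1.43, Mdm2 −0.68, E2f3 −0.63, Zfp639 −0.22, Zfp830 −0.34, Usp1 −0.82, Mrps18b −1.64, Mrpl12 −0.97, Atp5sl −0.66, Eif3a −1.52, Mars2 −0.25, Rian −2.58, Slc2a1 −1.22, Actb −1.78, Gapdh −1.01, Nanog −0.79, Rpl29 −1.88, Cbll1 −1.90, Ythdc1 −1.18, Ythdf3 −2.15 and Sall4 −0.29. By construction both measures give a narrow peak less weight than the mean does. The median gene stood at −1.15 with the median window and at −0.58 with the mean over windows of log2 coverage. A gene that turned can therefore still lie above the median gene. Centring outside the first IP's enrichment turned Dnmt3l to 0.036, Idi1 to 0.55, Mettl3 to 1.03, Pou5f1 to 0.41 and Mettl14 to 1.34, and median centring turned Actb to −0.38. Without 1 library in turn, Actb ranged from −0.12 (without WT IP 2) to 0.27 and Mettl14 from −0.30 to 0.15 (without WT IP 2).

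At 5 RPKM no mesoderm or endoderm marker was left, so those lists have no value there. A setting added after the data were seen, genes of at least 10 windows, left 5428 genes higher and 3538 lower of 10927. List medians are given relative to all genes. The cytosolic ribosomal list stayed below the median gene under all 17 settings (−2.45 to −0.88) and the zinc finger list above it (0.79 to 1.47). With 2 libraries a group and a shallow WT IP 2, depth limits what low windows and loci can show.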
